A study of Mus musculus with 16 samples.

Results

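The chaperonin CCT, also called TRiC, is a barrel of stacked rings built from 8 different subunits, each the product of its own gene: Tcp1 (the alpha subunit), Cct2, Cct3, Cct4, Cct5, Cct6a, Cct7 and Cct8. It takes up unfolded proteins in a central cavity and closes over them in a cycle driven by ATP. Actin and tubulin are the clients it is best known for, and WD40 proteins such as the anaphase-promoting complex activators Cdc20 and Fzr1 also pass through it, so that the spindle and the cell cycle of an oocyte both depend on folded products of this machine. All 8 subunit genes were looked up by gene name in the expression table, and each had exactly 1 of its 28618 entries.

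The libraries came from mouse (C57BL/6) oocytes and eggs of 2 genotypes at 2 stages, with 4 libraries in each of the 4 groups. WT GV is fully grown wild-type oocytes in prophase arrest with an intact germinal vesicle, taken 44 h after 5 IU of PMSG (a gonadotropin that grows follicles), and WT MII is wild-type eggs at metaphase II, flushed from oviducts 14 to 16 h after a following hCG injection and freed of cumulus cells with 0.3% hyaluronidase. The cKO GV and cKO MII groups had the same handling and came from Psma7 fl/fl;Zp3-Cre females, in which Cre is made by the oocyte from the primary follicle stage onward and removes Psma7, a subunit of the outer ring of the 20S proteasome, while follicle cells keep the gene. Females were 3 to 4 weeks old, and the labels give 5 pooled oocytes a library, so that every value is a mean over several cells and says nothing of the spread between them. Nothing in the labels states that replicates came from separate females, and p-values therefore measure the spread between these pools.

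The table holds FPKM (fragments per kilobase of transcript, scaled to the fragments mapped in a library), which compares levels between genes per unit of length. Depth ran from 10.5 to 15.7 × 10⁶ fragments a library, as recovered from the spacing of the low values. At these depths all 16 values of each subunit came within 1e-06 of a whole number of fragments, from 3934 to 17833 for Cct5 down to 35 to 526 for Cct6a. Psma7, the check of the genotype labels, read 154, 142, 201 and 164 FPKM in WT GV, 14.5, 14.7, 11.1 and 18.0 in cKO GV, 118, 116, 97.7 and 172 in WT MII, and 13.6, 50.3, 35.0 and 59.9 in cKO MII. It was lower in every cKO library than in any WT library of the same stage, but 3 of the 4 cKO egg libraries held more of it than any cKO GV library. All 10 oocyte markers were present (summed 4670 to 14328 FPKM a library). Of 12 cumulus and granulosa markers 11 were listed, and the 2 with means above 1 FPKM in every group were Cyp19a1 and Kitl. Fshr had means of 0.482 FPKM in WT GV, 0.634 in cKO GV, 0.0232 in WT MII and 0 in cKO MII. Inha had 0.146, 0.435, 0.0105 and 0.0460 FPKM in the same order. Group means of the other listed markers reached at most 0.0906 FPKM (Has2 in WT MII).

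The genes sit on 8 chromosomes of GRCm38 (GENCODE M21): Tcp1 at chr17:12915701-12925067, Cct2 at chr10:117051001-117063814, Cct3 at chr3:88297116-88321767, Cct4 at chr11:22990519-23003780, Cct5 at chr15:31590800-31601804, Cct6a at chr5:129786998-129846371, Cct7 at chr6:85451514-85468475 and Cct8 at chr16:87483326-87495873. Promoter windows of 250 bases before to 50 bases after the start were at hand for 7 of the 8 (RefSeq, GRCm38.p6), all but Cct4. Counts below are over the first-listed window of each gene. Every one of the 7 held at least 1 GC box (GGGCGG on either strand), against 35.7% of all 32851 mouse windows and 59.9% of the 7736 windows of genes tested in WT libraries. A CCAAT box (CCAAT on either strand) was found in 4 of the 7, in Cct3, Cct6a, Cct7 and Tcp1 (37.4% of all windows and 40.4% of those of tested genes), and the ETS core ACTTCCGG in Cct8 and Tcp1 (3.89% and 9.09%). The heat shock element spelled GAANNTTC was in 0 of the 7 (7.86% and 6.33%). Cct2 and Cct5 each had a second listed window, which held 1 heat shock element and 2 GC boxes for Cct2 and 0 of either for Cct5. The windows below, with GC boxes and CCAAT boxes in capitals, are of the subunit that rose in eggs (Cct8), the most abundant (Cct5), the one that fell furthest (Cct6a) and the one with most CCAAT boxes (Cct7).
Cct8, chr16:87495820-87496119, minus strand: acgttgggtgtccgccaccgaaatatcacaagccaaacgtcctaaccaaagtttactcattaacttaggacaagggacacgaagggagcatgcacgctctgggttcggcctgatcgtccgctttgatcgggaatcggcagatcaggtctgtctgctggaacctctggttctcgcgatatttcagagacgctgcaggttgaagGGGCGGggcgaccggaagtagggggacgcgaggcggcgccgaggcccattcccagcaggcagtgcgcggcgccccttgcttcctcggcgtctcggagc
Cct5, chr15:31601797-31602096, minus strand: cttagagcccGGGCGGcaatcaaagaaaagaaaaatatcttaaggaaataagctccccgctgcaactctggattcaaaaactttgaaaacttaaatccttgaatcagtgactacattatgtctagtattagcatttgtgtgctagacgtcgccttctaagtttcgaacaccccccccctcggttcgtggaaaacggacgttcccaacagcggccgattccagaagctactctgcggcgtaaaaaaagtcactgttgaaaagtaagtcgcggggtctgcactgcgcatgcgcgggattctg
Cct6a, chr5:129787106-129787405, plus strand: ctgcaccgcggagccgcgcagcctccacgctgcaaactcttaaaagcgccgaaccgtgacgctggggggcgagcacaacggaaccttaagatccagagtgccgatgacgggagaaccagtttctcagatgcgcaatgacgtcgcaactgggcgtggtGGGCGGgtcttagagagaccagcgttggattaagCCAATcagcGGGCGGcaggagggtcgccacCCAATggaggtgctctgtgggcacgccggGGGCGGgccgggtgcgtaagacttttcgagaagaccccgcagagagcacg
Cct7, chr6:85451255-85451554, plus strand: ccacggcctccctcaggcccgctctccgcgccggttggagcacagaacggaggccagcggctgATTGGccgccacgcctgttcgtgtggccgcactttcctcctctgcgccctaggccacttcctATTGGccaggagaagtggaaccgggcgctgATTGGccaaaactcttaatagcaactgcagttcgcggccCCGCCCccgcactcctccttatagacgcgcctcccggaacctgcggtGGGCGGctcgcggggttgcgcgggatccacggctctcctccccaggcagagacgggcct
Each of the 4 windows holds the GC box.

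Transcript ends were read because translation and stability of stored oocyte mRNAs are set there, by a cleavage signal (AATAAA or ATTAAA) and a cytoplasmic polyadenylation element (here TTTTAT or TTTTAAT). With 1 annotated transcript per gene, none of the 8 subunits had the cytoplasmic element in its last 100 bases, against 20.0% of 8731 tested genes. A cleavage signal lay in the last 40 bases of 6 of the 8 (77.7% of genes), missing in Cct4 and Cct7. Matches of this kind are descriptions of letters, and the ends used by these oocytes were not measured. The final 30 bases of 4 subunits that carry the signal there, shown in capitals, are given below because the whole signal lies within them.
Cct8: aAATAAAcatgattttttttctgtcattta
Cct2: tATTAAAATAAAaatccagttacttagccc
Tcp1: tcagaAATAAAtctgcctgcctttgcctct
Cct3: gcttccaatgATTAAAtctaagtcatttga
Cct8 and Cct2 had 2 signals each in the last 40 bases, Tcp1, Cct3, Cct5 and Cct6a had 1, and Cct4 and Cct7 had 0.

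The first question was how much of each subunit GV oocytes store. Levels (FPKM) ran over a 54.8-fold range between the most and the least abundant mean in WT GV, although the complex holds the subunits in equal numbers. Cct5 read 512, 555, 501 and 501 FPKM, and alone made up 51.9% ± 1.98 (SD, n = 4) of the summed CCT FPKM. Cct2 followed with 169, 156, 148 and 156 FPKM, and Tcp1 with 110.4, 109, 105 and 117 FPKM. These 3 stood apart, each with a range clear of its neighbours in the order.

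Cct3, with 62.6, 65.6, 63.4 and 72.6 FPKM, came next in WT GV. Cct4 read 76.9, 44.5, 44.2 and 45.7 FPKM, Cct7 50.2, 47.3, 40.3 and 43.8 FPKM, and Cct8 33.2, 38.1, 39.1 and 41.1 FPKM. From Cct3 to Cct8 the ranges of neighbours overlapped, so that this part of the order is not separated by 4 libraries. Cct6a, last in order, read 15.8, 8.38, 5.91 and 7.66 FPKM and lay below every other subunit in every library. Its paralogue Cct6b, which takes the place of Cct6a in testis, had means of 0.146 FPKM in WT GV and 0.00563 FPKM in WT MII.

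**Figure D1:**
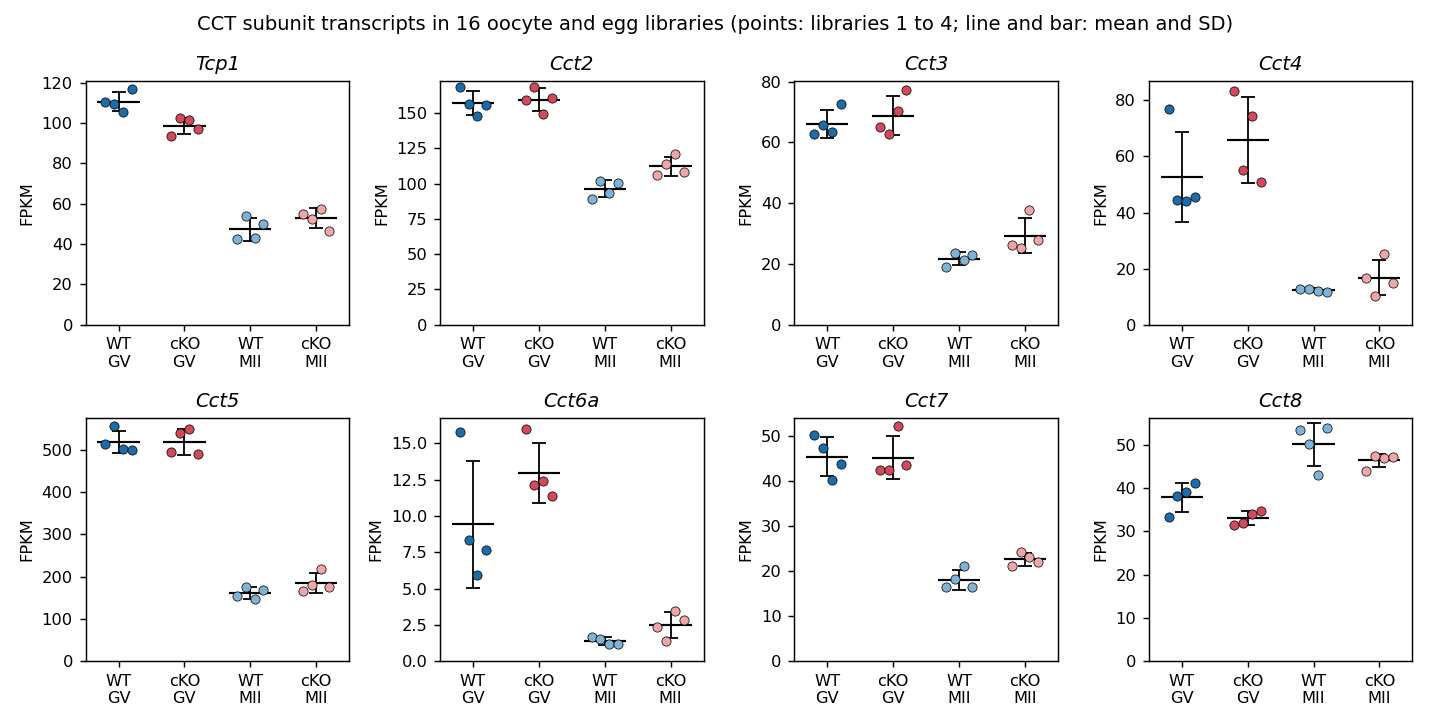
FPKM (vertical axes, from 0) of each CCT subunit in WT GV, cKO GV, WT MII and cKO MII libraries. Points are the 4 libraries of a group, horizontal lines means and bars SDs. In 7 panels both MII groups lie below both GV groups, while in the Cct8 panel they lie above, with WT MII at 43.0 to 53.8 FPKM against 33.2 to 41.1 FPKM in WT GV.

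Next, WT eggs were compared with WT GV oocytes. The transcripts of 7 of the 8 subunits fell and that of Cct8 rose. In WT MII, Cct6a read 1.71, 1.51, 1.19 and 1.22 FPKM, Cct4 12.8, 12.9, 12.0 and 11.8 FPKM, and Cct5 153, 177, 148 and 169 FPKM. All 3 were lower in every egg library than in any GV library. As log2 fold changes with their standard errors these were -2.66 ± 0.27 for Cct6a, -2.05 ± 0.17 for Cct4 and -1.68 ± 0.08 for Cct5. Taken as plain means of FPKM, the egg levels were 14.9%, 23.4% and 31.3% of the GV mean. Adjusted p-values (limma on log2 FPKM floored at 1, Benjamini-Hochberg over 10475 transcripts) were 4.4e-06, 7.5e-07 and 1.4e-08.

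Cct3 read 18.8, 23.6, 21.4 and 23.1 FPKM in WT eggs, Cct7 16.4, 18.2, 21.1 and 16.4 FPKM, and Tcp1 42.6, 54.0, 42.8 and 49.98 FPKM. Their log2 fold changes were -1.61 ± 0.09, -1.34 ± 0.11 and -1.23 ± 0.09, with limma adjusted p-values of 6.2e-08, 7.6e-07 and 4.4e-07. Cct2 lost least among the subunits that fell, reading 89.3, 102, 93.2 and 101 FPKM, a log2 fold change of -0.71 ± 0.08 (limma adjusted p = 7.2e-06). Groups of GV and egg libraries did not overlap for any of these 4. Over all transcripts, 48.7% were lower and 23.9% higher in eggs without overlap.

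Cct8, the theta subunit, went the other way, with 53.2, 50.2, 43.0 and 53.8 FPKM in WT eggs. Each was above the highest GV library (41.1 FPKM), and the log2 fold change was 0.40 ± 0.10 (limma adjusted p = 0.0035). At its 3′ end Cct8 shares 192 exonic bases with Usp16, a deubiquitinase gene on the opposite strand, whose mean rose from 36.5 to 73.5 FPKM between the same groups, and Smart-seq2 libraries do not record strand. At even coverage the shared bases would bring Cct8 2.93 FPKM in WT GV and 5.90 FPKM in WT MII, against a difference of means from 37.9 to 50.1 FPKM. The part of the overlap in the rise was not tested beyond that.

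All 8 exact permutation tests (2-sided, 4 libraries against 4) gave 0.0286, the smallest p this design allows. Among all 10475 transcripts 52.4% fell and 26.1% rose with a limma adjusted p under 0.05. Falling is thus the more common course, and the 7 are to be read against that share. The median log2 fold change was -1.47 over the 8 subunits and -0.44 over all transcripts. By size, 4 of the 8 subunits were more than 3-fold lower in WT eggs (22.1% of all transcripts) and 0 were more than 10-fold lower (3.79%). FPKM is relative to all other transcripts in a library and no spike-in entries were in the table, so that a change per cell and a change in share of the RNA cannot be told apart. Libraries were primed with oligo-dT, so tail length also bears on these values, and its part was not tested. With libraries rescaled to a median ratio, the median of all transcripts moved to -0.23, Cct2 to -0.49 and Cct8 to 0.62, and all 8 directions and calls were kept. The 11 listed cumulus and granulosa markers summed to 11.7 to 13.6 FPKM in WT GV and 17.1 to 20.8 FPKM in WT MII libraries, nearly all of it Cyp19a1 and Kitl, and their part in these differences was not tested.

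**Figure D2:**
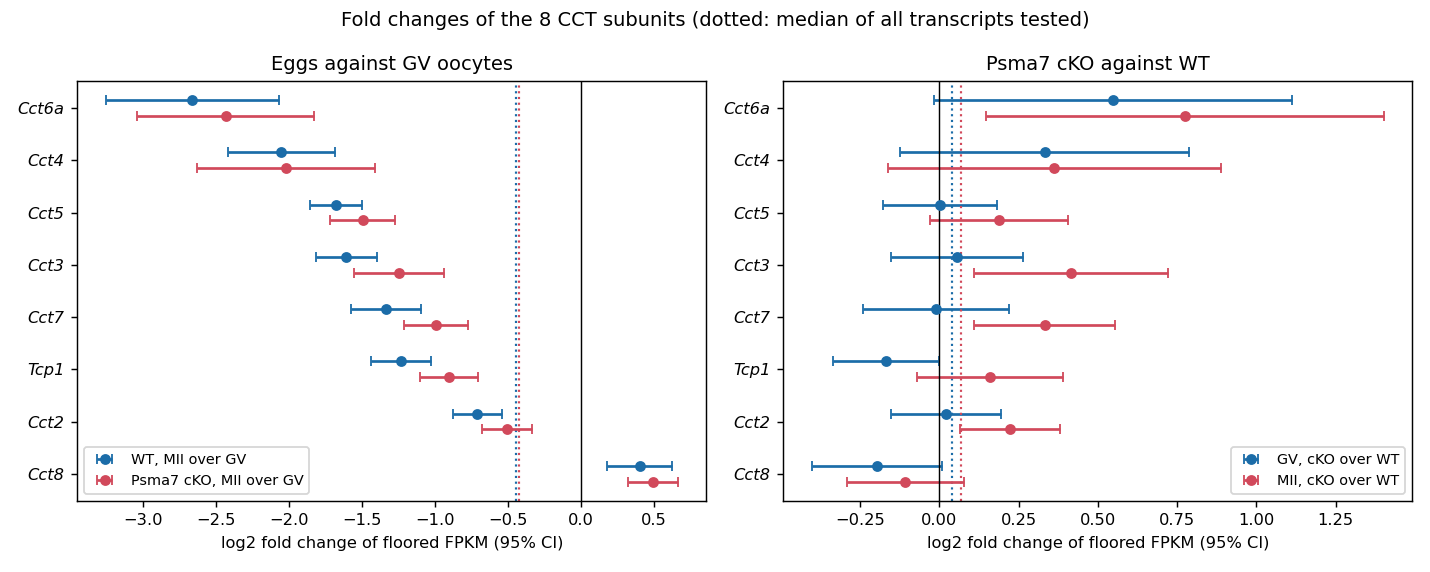
Log2 fold changes (horizontal axes) of floored FPKM with limma 95% confidence intervals, at left MII over GV for each genotype and at right cKO over WT for each stage. In both genotypes the intervals of 7 subunits lie below 0 and that of Cct8 above it; the dotted lines at left mark the median of all transcripts, -0.44 in WT and -0.42 in cKO.

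The uneven losses changed the makeup of the CCT pool. Summed over the 8 subunits, the level was 997 ± 38.8 FPKM in WT GV and 409 ± 27.7 FPKM in WT MII (SD, n = 4 each). Cct5 dropped to a share of 39.5% ± 0.65 of the sum in WT eggs. Cct2 went from 15.8% ± 0.46 to 23.5% ± 0.60, and Cct8 from 3.81% ± 0.44 to 12.3% ± 1.15. Cct8 thereby moved from seventh in the order of levels to the third place, where its range overlapped that of Tcp1. The distance between the most and the least abundant subunit widened to 115-fold. Shares of 1 sum move against each other by construction and were given no test.

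**Figure D3:**
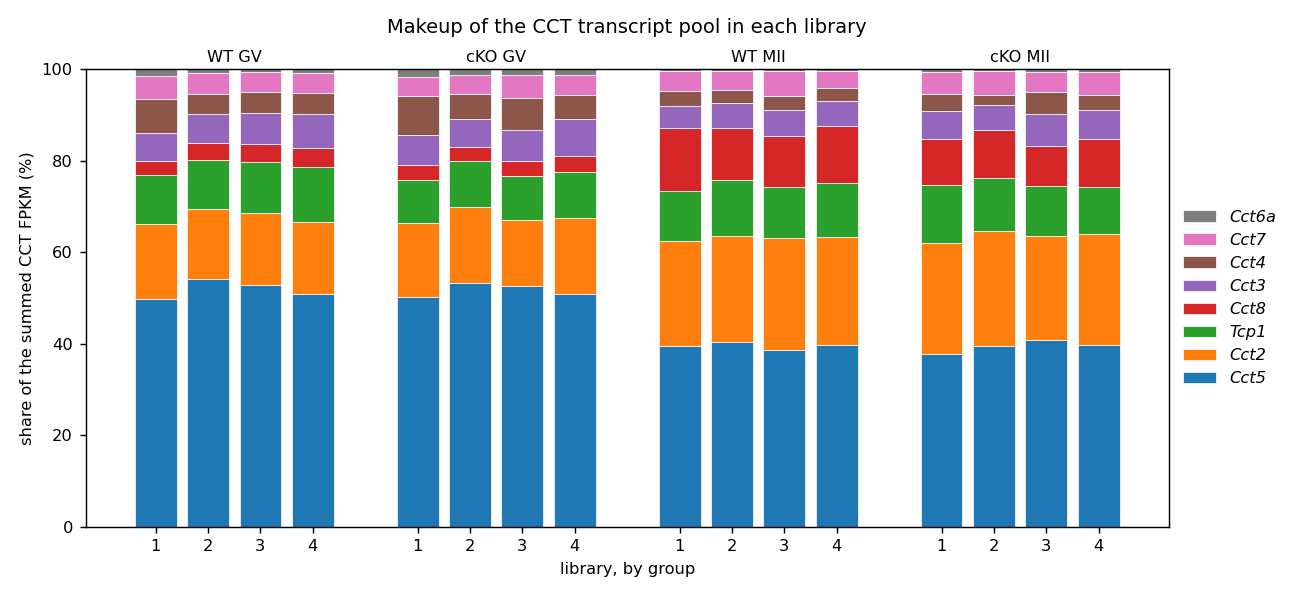
Share (%) of the summed CCT FPKM held by each subunit (stacked bars) in the 16 libraries, 4 a group. Cct5 takes 49.7% to 54.2% in WT GV and 38.7% to 40.3% in WT MII, and the band of Cct8 widens from 3.22% to 4.17% up to 11.2% to 13.7%.

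Maturation in the absence of Psma7 was then followed in the same way. In cKO GV, Cct5 read 494, 540, 550 and 490 FPKM, and in cKO MII 165, 180, 218 and 177 FPKM. Cct4 went from 83.2, 55.0, 74.4 and 50.8 FPKM to 16.8, 10.1, 25.3 and 14.9 FPKM, and Cct6a from 16.0, 12.1, 12.4 and 11.4 FPKM to 2.38, 1.37, 3.49 and 2.83 FPKM. Stages did not overlap for any of the 3 (47.2% of transcripts were lower and 21.4% higher without overlap). Their log2 fold changes were -1.49 ± 0.10, -2.02 ± 0.27 and -2.43 ± 0.27, with limma adjusted p-values of 2.7e-06, 0.00013 and 3.8e-05.

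Cct3 fell from 65.0, 62.6, 70.2 and 77.2 FPKM to 26.3, 25.2, 37.7 and 27.9 FPKM in the cKO, and Cct7 from 42.4, 42.4, 52.2 and 43.5 FPKM to 21.1, 24.2, 23.2 and 21.9 FPKM. Tcp1 fell from 93.5, 102, 101 and 96.9 FPKM to 55.1, 52.5, 57.5 and 46.3 FPKM, and Cct2 from 159, 169, 149.6 and 161 FPKM to 106, 114, 121 and 108 FPKM. Their log2 fold changes were -1.25 ± 0.14, -0.99 ± 0.10, -0.90 ± 0.09 and -0.51 ± 0.08, and the highest of their limma adjusted p-values was 0.00026. Cct8 rose again, from 31.5, 31.9, 34.0 and 34.7 FPKM to 44.0, 47.4, 46.8 and 47.2 FPKM, a log2 fold change of 0.49 ± 0.08 (limma adjusted p = 0.00031). Cct4 and Cct6a, 2 of the 8, were more than 3-fold lower (17.2% of transcripts). Of 10748 transcripts, 51% fell and 23% rose in this comparison, and the median log2 fold change was -1.12 over the subunits and -0.42 over all transcripts. With rescaled libraries the latter moved to -0.18 and Cct2 to -0.26, with the 8 calls kept. The summed level went from 1002 ± 34.4 to 468 ± 44.2 FPKM.

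In GV oocytes, cKO libraries were compared with WT libraries. By limma 0 of the 8 passed an adjusted p under 0.05, a result shared by nearly all transcripts (0.0994% of 11062 were higher and 0.0181% lower), and 0 had an unadjusted p under 0.05 (7.62% of transcripts higher and 3.06% lower). Cct5, with a log2 fold change of 0.0032, had a 95% confidence interval of -0.18 to 0.18, and Cct2, with 0.02, one of -0.15 to 0.19. Those of Cct3 (-0.15 to 0.26) and Cct7 (-0.24 to 0.22) were somewhat wider, and a shift of 1 log2 unit in any of these 4 lies outside the interval. The signs of Cct2, Cct3, Cct5 and Cct7 turned when single libraries were left out.

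Tcp1 read 93.5 to 102 FPKM in the 4 cKO GV libraries and 105 to 117 FPKM in the 4 WT GV libraries. It was the 1 subunit whose groups did not overlap (2.42% of transcripts were lower and 4.25% higher without overlap), with a log2 fold change of -0.17 (interval -0.34 to 0.00053, limma adjusted p = 0.47, exact permutation p = 0.0286). Cct8 gave -0.20 (interval -0.40 to 0.01). Cct4 and Cct6a were the most variable, with estimates of 0.33 (-0.12 to 0.79) and 0.55 (-0.02 to 1.11). In both genotypes library 1 was the highest for these 2 subunits. Without WT GV library 1 and cKO GV library 1, a setting chosen after the values were seen, still 0 subunits passed.

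In eggs, the log2 fold change of cKO over WT was above 0 for 7 of the 8 subunits, but none passed the adjusted test (limma, 0 of 8, while 6.53% of 9492 transcripts were called higher and 1.49% lower). An estimate above 0 was found for 59.4% of all transcripts. Cct2, Cct3 and Cct7 did not overlap between genotypes (13.6% of transcripts were higher without overlap). Cct7 lay between 21.1 and 24.2 FPKM in cKO eggs and between 16.4 and 21.1 FPKM in WT eggs, a log2 fold change of 0.33 ± 0.10 (limma adjusted p = 0.065, exact permutation p = 0.0286). Cct3 gave 0.42 ± 0.14 (limma adjusted p = 0.085) and Cct2 0.22 ± 0.07 (limma adjusted p = 0.078), both with the same exact permutation p. The estimate was largest for Cct6a, at 0.78 ± 0.28 (limma adjusted p = 0.11), with 3 of 4 cKO libraries above all WT libraries and fragment counts of only 35 to 102.

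Counting unadjusted p-values under 0.05, 4 of the 8 were higher (20.6% of all transcripts) and 0 lower (8.8%). For Cct8 the log2 fold change was -0.11, with an interval of -0.29 to 0.08. The calls in eggs shifted with the fit: with all 16 libraries in 1 fit Cct2, Cct3 and Cct7 passed (limma adjusted p = 0.045, 0.029 and 0.039), and without cKO MII library 2 Cct6a passed (0.018). All cKO egg libraries are labelled MII, but the paper reports that part of the ovulated cKO oocytes stopped at earlier stages. Whether the pools held such oocytes was not tested. The cKO egg libraries also varied in how far maternal transcripts had dropped. The 397 transcripts more than 10-fold lower in WT eggs than in WT GV oocytes, none of them a CCT subunit, stood summed at 5.93% to 6.80% of the GV level in WT eggs and at 12.7%, 8.80%, 34.5% and 19.0% in cKO libraries 1 to 4. They were chosen on the WT libraries, so the WT values are low by choice. Cct3, Cct4, Cct5, Cct6a, Tcp1 and Cct2 were each highest in cKO library 3, the one with 34.5%. Without that library the median over the subunits was 0.16 in place of 0.28, and the part of this spread in the genotype estimates was not tested.

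**Figure D4:**
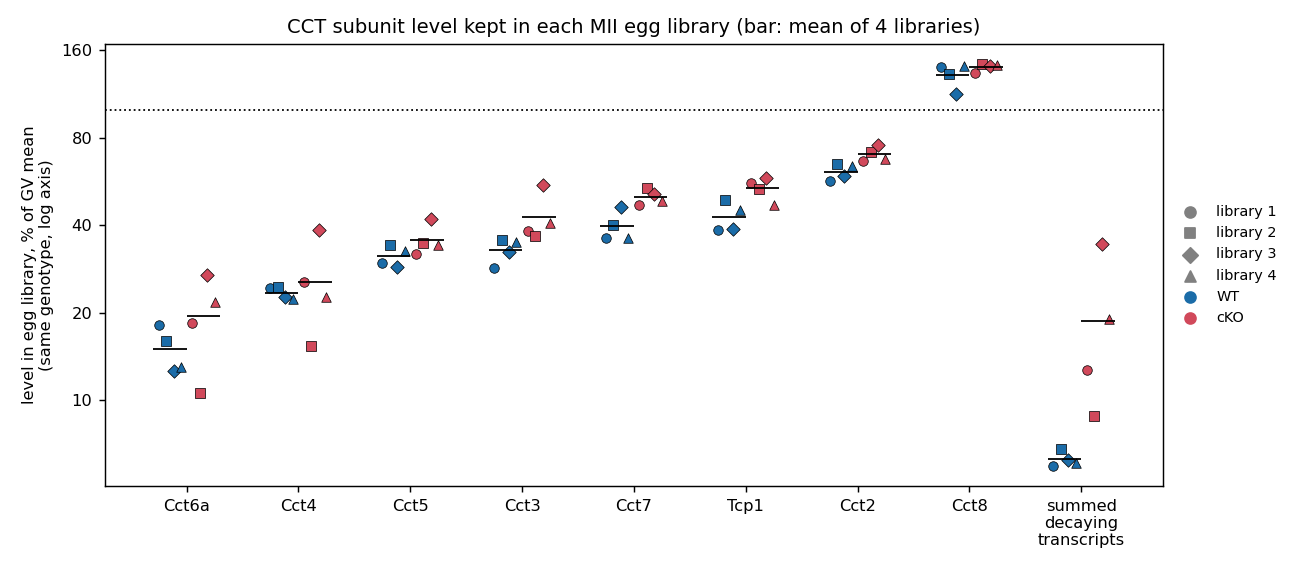
Level of each subunit in each egg library as a percentage of the GV mean of the same genotype (log axis), beside the 397 summed decaying transcripts; symbols are libraries 1 to 4 and bars group means. In cKO eggs library 3 (diamond) is the highest for 6 of the 8 subunits and, at 34.5%, for the summed decaying transcripts.

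Whether the change at maturation differed between genotypes was tested directly. The interaction passed for 0 of the 8 subunits (limma, with 1.07% of 10615 transcripts called higher and 0.188% lower), and 3 had an unadjusted p under 0.05 in the higher direction and 0 in the lower (12.7% and 5.03% of transcripts). These 3 were Tcp1 (0.33, 95% confidence interval 0.06 to 0.59), Cct7 (0.34, 0.04 to 0.65) and Cct3 (0.36, 0.0042 to 0.72), where a positive value means a smaller fall in the cKO. Their limma adjusted p-values were 0.18, 0.22 and 0.28. For Cct4 the interval ran from -0.69 to 0.75 and for Cct6a from -0.64 to 1.09, and both estimates turned sign when WT GV library 1 was left out. Over the 24 alternatives the sign turned in 4 for Cct4 and in 1 for Cct6a. A larger fall in the cKO by more than 1 log2 unit lies outside the interval of every subunit.

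CCT works in a chain with other factors, which were described from lists of its partners. Prefoldin, a hexamer that hands actin and tubulin to CCT, had 2 of 6 subunits higher and 3 lower in WT eggs. Pfdn4 rose from 818 ± 105 to 1787 ± 176 FPKM (log2 fold change 1.13) and Pfdn2, named after its values were seen, by 0.70, whereas Pfdn6 fell by 4.04, Pfdn1 by 1.91 and Vbp1 by 1.57 on the log2 scale. The median over the 6 was -0.81, and over all transcripts 26.1% rose and 52.4% fell, with a median of -0.44. Among the phosducin-like proteins, which bind CCT and modulate it, Pdcl3 rose by a log2 fold change of 0.71 and Txndc9 fell by 2.35, and Pdcl, at -0.07, did not pass.

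The tubulin folding cofactors, which take tubulin on from CCT to build the alpha-beta dimer, fell in 5 of 6 cases (median -1.35, against 52.4% lower and a median of -0.44 over all transcripts), led by Tbcc (-2.94) and the cofactor-binding GTPase Arl2 (-2.35). Tbca, at -0.14, did not pass. Tbcd, among the 5 and named here for its low level, had means of 1.92 FPKM in WT GV and 0.232 FPKM in WT MII. It met the filter only through its GV level and lay under the floor of 1 FPKM in eggs, so its direction was fixed in advance. Of 15 tested client transcripts 13 fell and 2 rose (median -1.78), where 52.4% of all transcripts fell and 26.1% rose. Tubb2b, among the 13 and named for the same reason, had means of 6.15 FPKM in WT GV and 0.594 FPKM in WT MII. It too met the filter only through its GV level, with an egg mean under the floor. The largest falls were in the beta-tubulins Tubb4b (-3.90) and Tubb6 (-3.85), in Fzr1 (-3.35) and in the alpha-tubulin Tuba1b (-2.90). The 2 that rose, Gnb1 (1.21) and Gnb2 (1.05), encode G protein beta subunits with a WD40 fold and were also named after their values were seen. Hspd1 of the mitochondrial chaperonin, a structural relative that works apart from CCT, fell by 0.18 on the log2 scale (limma adjusted p = 0.049), and Hspe1, its cofactor, at 0.18, did not pass. The fall of Hspd1 was smaller than the median of all transcripts (-0.44). So were those of the clients Actb (-0.28), Cdc20 (-0.35) and Tubg1 (-0.38), named after their values were seen. Rescaling moved that median to -0.23, and partner and client values were not followed under it.

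Between cKO and WT eggs 3 of 14 tested client transcripts and 1 of 5 tubulin cofactors were higher and none lower. Over all transcripts 6.53% were higher and 1.49% lower. Tubb4b stood at 14.1 ± 2.12 FPKM in WT eggs and 35.2 ± 13.1 FPKM in cKO eggs (log2 fold change 1.26, limma adjusted p = 0.029). Actg1, a cytoplasmic actin, and Tubb6 differed by 0.94 and 0.92, and Arl2 by 0.87 (limma adjusted p = 0.021, 0.029 and 0.034). All of them are transcripts that fall during WT maturation. Calls in eggs hung on single libraries: leaving out 1, 3 to 1024 of all transcripts were called higher, against 620 with all. Whether the client and cofactor calls held in those fits was not followed. In GV oocytes 0 transcripts of any partner list passed.

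**Figure D5:**
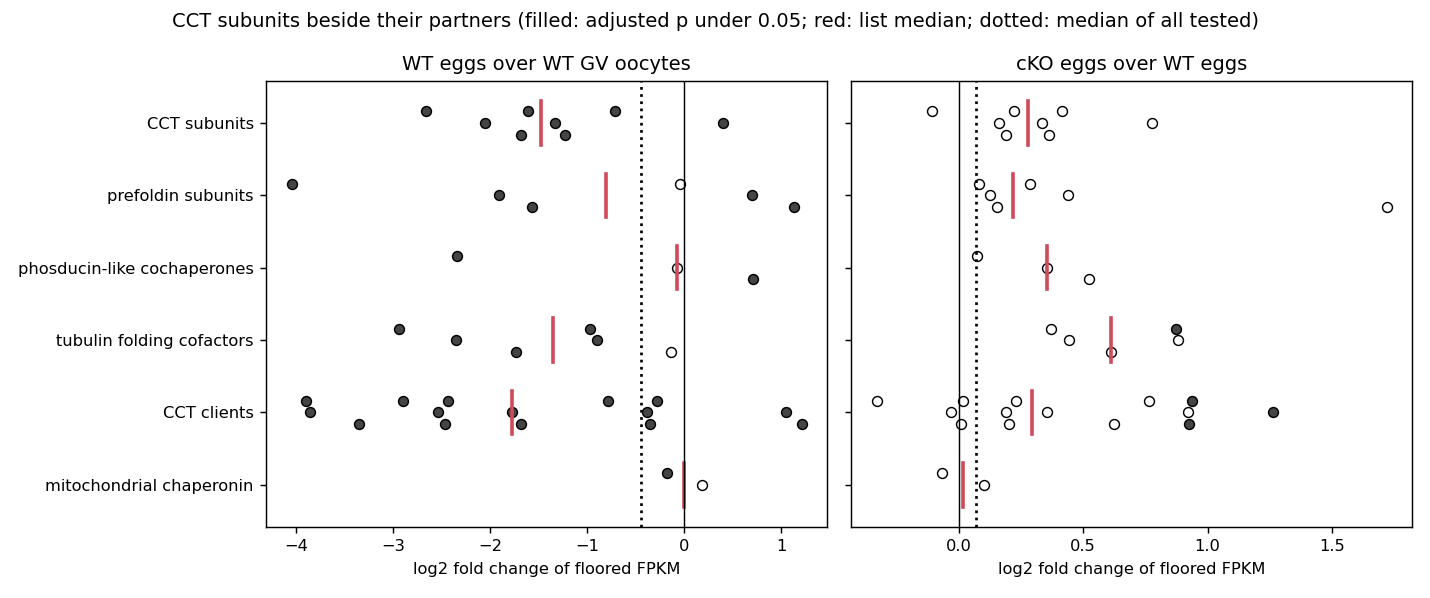
Log2 fold changes (horizontal axes) of CCT subunits and of 5 lists of partners, clients and relatives, WT eggs over WT GV oocytes at left and cKO over WT eggs at right. Each point is 1 transcript, filled where the limma adjusted p was under 0.05; red bars are list medians, at left -1.47 for CCT, -0.81 for prefoldin and -1.78 for clients.

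The transcripts most like the CCT subunits over the 16 libraries, by Pearson r with the mean log2 level of the 8, were Qrich1 (0.997), Umps, Nufip1 (both 0.996), Prmt7 and Eif4h (both 0.995). That mean follows the 7 subunits that fell: each of them had an r of 0.96 to 0.98 with the mean of the other members, while Cct8 had -0.91. The libraries form 2 clusters by stage, and 2136 of 10607 transcripts exceeded 0.95. Pearson r takes no account of the size of a change. Mean Qrich1 fell from 17.2 FPKM in WT GV to 1.07 FPKM in WT MII. Mean Umps fell from 13.4 to 0.895 FPKM, under the floor of 1, beside a summed CCT level of 997 and 409 FPKM. In deviations from group means alone, Qrich1 (0.96) and Nufip1 (0.90) were again among the first 5. Reads of several subunits can be hard to place: RefSeq lists 16 pseudogenes named for CCT subunits, none of which has an entry in the table, and Cct6a, Cct7 and Tcp1 share exonic bases with opposite-strand genes (Psph, Pradc1, Acat3 and Mrpl18). Of these partners Pradc1 fell from 30.9 to 4.71 FPKM and Mrpl18 rose from 128 to 179 FPKM between WT stages, over 214 and 141 shared bases. At even coverage Mrpl18 would bring Tcp1 7.23 FPKM in WT GV and 10.1 FPKM in WT MII, beside Tcp1 means of 111 and 47.4 FPKM. Pradc1 would bring Cct7 2.69 and 0.411 FPKM, beside means of 45.4 and 18.0 FPKM. The part of these overlaps in the levels was not tested.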

How the data were processed

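Per the labels, RNA of 16 oocyte pools was primed with oligo-dT and made into Smart-seq2 libraries with ERCC spike-ins, so that only polyadenylated transcripts entered, and tail length bears on what was primed. The study's methods and the labels differ in the pool size; the labels' figure of 5 is used. The submitters' processing notes name TopHat2 2.1.1, Cufflinks 2.2.1 and the build mm10. The authors deposited 1 table of FPKM values; strand and the handling of multi-mapped reads are not given in the sources used here. It has 0 ERCC entries and 0 columns of other samples.

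From these values, FPKM under 1 was set to 1 (as the authors did), log2 values of entries with a mean of at least 1 FPKM in the libraries compared were fitted with limma 3.58.1 (R 4.3.3, eBayes with an intensity trend), p-values were adjusted by Benjamini-Hochberg over all entries, and 0.05 was the threshold. The interaction used all 16 libraries, every other test its 2 groups. Exact permutation tests were 2-sided. Library totals were the most frequent value of the FPKM formula solved for depth over single-transcript genes (GENCODE M21) under 0.6 FPKM, and were checked on simulated data, as were the fits. Fragment counts cover counting error only. The table is FPKM, so no count model was used. Python 3 scripts with numpy, pandas and scipy did the rest.

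The members and the gene lists were chosen with earlier results of these data known, and lists have no test of their own. Named genes were the 8 subunits, Psma7, up to 4 called transcripts with the largest change per list and comparison, and the 5 most similar transcripts. Names outside this rule include cell type markers, genes that overlap subunits, Cct6b, and Pdcl, Tbca and Hspe1, which did not pass. Others are marked. Replicate numbers were not used to pair libraries in the main fits. Alternatives were the floor, added 1, the filter, the trend, a replicate block, rescaling, summed entries, a joint fit and leaving out each library.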

Additional observations from a re-analysis of the deposited data

Results flagged for a closer look

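In 70 checks of groups of 4 libraries for a value far from the others (its gap to the nearest over the group's range, by Dixon's 95% limit), 4 exceeded the limit, where chance alone gives about 1 in 20. Cct4 was highest by far in WT GV library 1, both as FPKM (0.955) and as a share of the summed CCT FPKM (0.896). The share of Cct6a stood out in cKO GV library 1 (0.963), and the FPKM of Cct7 in cKO GV library 3 (0.882).

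The change at maturation differed between genotypes by the limma interaction term for 3 transcripts of the lists, with no CCT subunit among them. These were Tubb6 (log2 difference 1.13, adjusted p = 0.035), Zp3 (1.14, adjusted p = 0.023) and Figla (1.68, adjusted p = 0.042). In each the fall from GV to MII was smaller in the cKO. Over all 10615 transcripts 1.07% were called higher and 0.188% lower by this term. Leaving out 1 library, 37 to 605 were called higher, and whether the 3 named held in those fits was not followed.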

How the results depend on the processing

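All 8 stage calls, in both genotypes, kept their direction and passed limma's adjusted test under every alternative run (17 a subunit, 0 reversed). Counts of all falling transcripts at maturation moved by over 1.5 times only with a mean of at least 5 FPKM, to 3123 in WT and 3136 in cKO, where fewer entries were tested.

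Genotype counts depended on the setting. In GV oocytes 11 transcripts were higher and 2 lower, and the alternatives gave 2 and 1 with no filter, 5 and 1 with a mean of at least 5 FPKM, 18 and 4 without a trend, 5 higher with rescaling, and 96 and 28 with all 16 libraries in one fit. Leaving out 1 library, these were 3 to 16 higher and 2 to 4 lower, and 3 higher without WT GV library 1 and cKO GV library 1, chosen after seeing the data. In eggs 620 were higher and 141 lower, with 974 and 77 unfiltered, 86 lower without a trend, 1278 and 220 in the joint fit, and 3 to 1024 higher and 0 to 136 lower leaving out 1 library. The lowest count came without WT MII library 3 and the highest without cKO MII library 2. Of the CCT subunits 3 passed in the joint fit and 0 to 1 leaving out 1 library. For the interaction 114 were higher and 20 lower, with 75 and 8 when 1 FPKM was added, 22 and 7 unfiltered, 192 higher with a mean of at least 5 FPKM, and 37 to 605 higher and 4 to 46 lower leaving out 1 library. Without a filter most residual variances were 0 and limma warned that its moderation was unreliable. The causes of these shifts were not tested further.

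With the replicate number as a block the counts were 4 higher in GV oocytes, 101 and 7 in eggs, and 53 and 7 for the interaction, and no CCT call changed. In deviations from group means, same-numbered libraries had r from -0.50 to 0.29 over 16 pairs. Libraries with different numbers were not compared, so whether a number marks a shared batch was not tested.

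Signs near 0 turned in GV oocytes: Cct5 to -0.0275 and Cct2 to -0.0101 on rescaling, and Cct7 to 0.069 without both libraries 1 (where Cct2 was 0.055). Leaving out 1 library, the ranges were -0.0017 to 0.10 for Cct3, -0.0815 to 0.041 for Cct7, -0.0253 to 0.0377 for Cct5 and -0.0075 to 0.0546 for Cct2, and for the interaction -0.19 to 0.25 for Cct4 and -0.0546 to 0.49 for Cct6a. With 35 to 48 fragments in WT eggs, Cct6a is the subunit whose level depth limits most.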
